A study of Mus musculus with 38 samples.

Results

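MHC class II presentation genes are described here by 8 members chosen by name: the class II chains H2-Aa, H2-Ab1 and H2-Eb1, the invariant chain Cd74, the peptide-loading chains H2-DMa, H2-Oa and H2-Ob, and the transactivator Ciita. All 8 were measured, out of 19937 genes on the arrays, each by 1 probe set that carries its symbol alone. The 38 Affymetrix Gene 1.0 ST arrays cover CD11b+ cells sorted from wild-type female C57BL/6 mice aged 6 weeks, and 13 populations are labelled. Ear skin was either left at steady state or treated with 10 µl of 0.5% 2,4-dinitrofluorobenzene (DNFB), a contact sensitiser, and harvested 3 days later. Each population has n = 3 arrays, except P1 after DNFB with n = 2. The series text mentions independent pools of mice but does not tie arrays to them.

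The populations differ in their sort gates, and the class II protein was itself a gate. Blood monocytes (steady state) were sorted as Ly6Chi CD11b+ cells, with no class II gate stated. In dermis, the class II negative populations were P1 (CD24- CD64low Ly6Chigh CCR2+, steady state and DNFB) and the macrophages P4 (CD64+ Ly6C- CCR2-, steady state). The class II positive dermal populations were P2 (CD64+ Ly6Chigh CCR2+, steady state and DNFB), P3 (CD64+ Ly6Clow CCR2+, steady state), the macrophages P5 (as P4 but class II positive, steady state) and the dermal dendritic cells (DC; CD24- Ly6C- CD64-, steady state and DNFB). In the draining cutaneous lymph node, class II high CD11c+ migratory DC (CD24- Ly6C- CD64-) were taken at steady state and after DNFB, and class II high CD64+ Ly6C+ cells after DNFB, whose label fields name them differently, as a monocyte or as a DC. A difference between a class II positive and a class II negative gate therefore has its direction set by the sort, and the values below describe its size in RNA.

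A class II molecule is a heterodimer of an alpha chain and a beta chain, here H2-Aa with H2-Ab1, and H2-Eb1 as the E beta chain. The invariant chain Cd74 holds the groove closed on the way to the endosome, where cathepsins trim it. H2-DM, of which H2-DMa is the alpha chain, exchanges the remaining invariant chain fragment for antigen peptide, and H2-O, built from H2-Oa and H2-Ob, restrains H2-DM in B cells and in some DC. Ciita is the coactivator that switches these genes on through a shared promoter module of an X box, bound by the RFX complex, and a Y box, bound by NF-Y. When DC mature and leave tissue for the lymph node, they are known to stop making new class II and to keep complexes at the surface for longer.

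The promoters are shown first, since this module is known from class II genes. RefSeq promoter windows of GRCm38.p6, each with 250 bases before and 50 after a start site, were available for 5 of the 8 members, H2-Aa, H2-Eb1, H2-DMa, H2-Oa and H2-Ob. On both strands, the Y box core GATTGG occurred in a window of each of these 5 and in 16.1% of the 32851 windows of all genes. The X1 box core CCNAGNNAC, where N is any base, occurred in windows of H2-Aa, H2-Oa and H2-Ob and in 17.3% of all windows. In H2-Aa the X1 core began 180 bases before the start site, far from the Y core, which began 49 bases before it. In H2-DMa the Y core lay only in window 2, 199 bases before that start site. X1 followed by Y on the same strand with 10 to 25 bases between them occurred in 1 member, H2-Ob, and in 0.103% of windows. After these sequences had been seen, a shorter and wider pattern was searched too: GCAAC, whose letters can lie inside the X1 core, followed on the same strand by GATTGG after 15 to 35 bases. This pattern occurred in 4 members and in 0.365% of all windows (120 windows, 110 genes), and since its letters were taken from these promoters, the members' matches are a description. In the 4 windows below, capitals mark GCAAC and then GATTGG, and the spacer between them is 27 bases in H2-Aa, 26 in H2-Eb1, 27 in H2-Oa and 24 in H2-Ob.
H2-Aa: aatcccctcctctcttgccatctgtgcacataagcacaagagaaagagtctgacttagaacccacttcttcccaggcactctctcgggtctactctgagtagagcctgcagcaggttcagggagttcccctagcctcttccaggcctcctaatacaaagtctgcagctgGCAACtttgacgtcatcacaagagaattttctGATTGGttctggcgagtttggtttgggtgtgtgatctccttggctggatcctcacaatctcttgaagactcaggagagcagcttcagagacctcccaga
H2-Eb1: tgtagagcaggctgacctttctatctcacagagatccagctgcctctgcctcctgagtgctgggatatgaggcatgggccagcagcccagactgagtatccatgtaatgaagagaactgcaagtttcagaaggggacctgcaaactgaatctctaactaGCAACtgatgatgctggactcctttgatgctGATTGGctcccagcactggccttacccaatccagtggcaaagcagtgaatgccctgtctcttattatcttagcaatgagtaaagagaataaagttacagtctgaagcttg
H2-Oa: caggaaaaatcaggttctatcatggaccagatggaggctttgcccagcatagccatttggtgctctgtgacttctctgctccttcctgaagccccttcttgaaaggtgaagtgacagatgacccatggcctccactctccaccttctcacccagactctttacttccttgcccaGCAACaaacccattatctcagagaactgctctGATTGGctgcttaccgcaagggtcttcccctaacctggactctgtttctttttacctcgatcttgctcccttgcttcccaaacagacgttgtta
H2-Ob: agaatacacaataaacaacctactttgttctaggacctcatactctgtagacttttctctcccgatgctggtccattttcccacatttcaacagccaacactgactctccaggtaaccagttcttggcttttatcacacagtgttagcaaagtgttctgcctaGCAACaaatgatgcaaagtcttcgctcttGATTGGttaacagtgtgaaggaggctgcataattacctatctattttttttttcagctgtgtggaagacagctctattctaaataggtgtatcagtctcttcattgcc
These windows lie at chr17:34287774-34288073 on the minus strand (H2-Aa), chr17:34305617-34305916 on the plus strand (H2-Eb1), chr17:34092129-34092428 on the plus strand (H2-Oa) and chr17:34238655-34238954 on the plus strand (H2-Ob). GCAAC began 81 bases before the start site in H2-Aa, 91 in H2-Eb1, 76 in H2-Oa and 87 in H2-Ob. Neither of the 2 H2-DMa windows held the pair, which says only that these letters are not in them. The window of H2-Eb2, a neighbouring class II beta gene that is not among the 8, held the pair with a spacer of 26 bases.

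Values are log2 intensities, a difference of 1 is a 2-fold change, and levels are compared only for the same gene between populations. Array medians lay between 4.39 and 4.65, the highest value on any array was 13.8, and 4.02 was the 40th percentile of all values, below which signal is low. Differences are given with their standard error (SE) from limma, fitted over all arrays. Every adjusted p is limma's, adjusted by Benjamini-Hochberg over 19937 genes with 0.05 as the threshold. Some members are also counted at an unadjusted limma p under 0.05. Shares of all genes beside those counts are at the adjusted threshold, and no share at the unadjusted one was counted. The labelled types were checked by means of marker genes: 5 monocyte genes were at 10.81 in blood monocytes and 4.34 in steady-state node DC, 7 macrophage genes at 10.76 in P4 and 4.52 in steady-state node DC, and 5 DC genes at 7.93 to 8.96 in the dermal and node DC and 4.98 in P4. The node CD64+ cells had both macrophage genes (8.93) and DC genes (8.29). Markers of other cells differed between populations too. Means of 7 keratinocyte genes lay between 4.52 and 4.78 in blood and node populations and between 6.23 and 8.55 in dermal populations. The mean of 6 fibroblast genes was 8.15 in steady-state P1, with arrays from 6.85 to 10.07. B cells carry class II, and the mean of 9 B cell genes lay between 4.07 and 4.43 in all populations. Of these genes, Cd79a read 5.85 and Ms4a1 4.53 on blood replicate 1, and no other array was above 4.04 for Cd79a or 3.60 for Ms4a1. Calls were made for 3 others: Ebf1 was 2.20 (SE 0.63) higher in P1 than in blood and 1.96 (SE 0.63) higher in P1 than in P4, Blk was 0.46 (SE 0.16) higher in node DC than in dermal DC at steady state, and Cd79b was 1.82 (SE 0.49) higher in node CD64+ cells than in node DC. In sorted bulk samples, fewer cells of a type and less RNA per cell cannot be told apart.

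**Figure D1:**
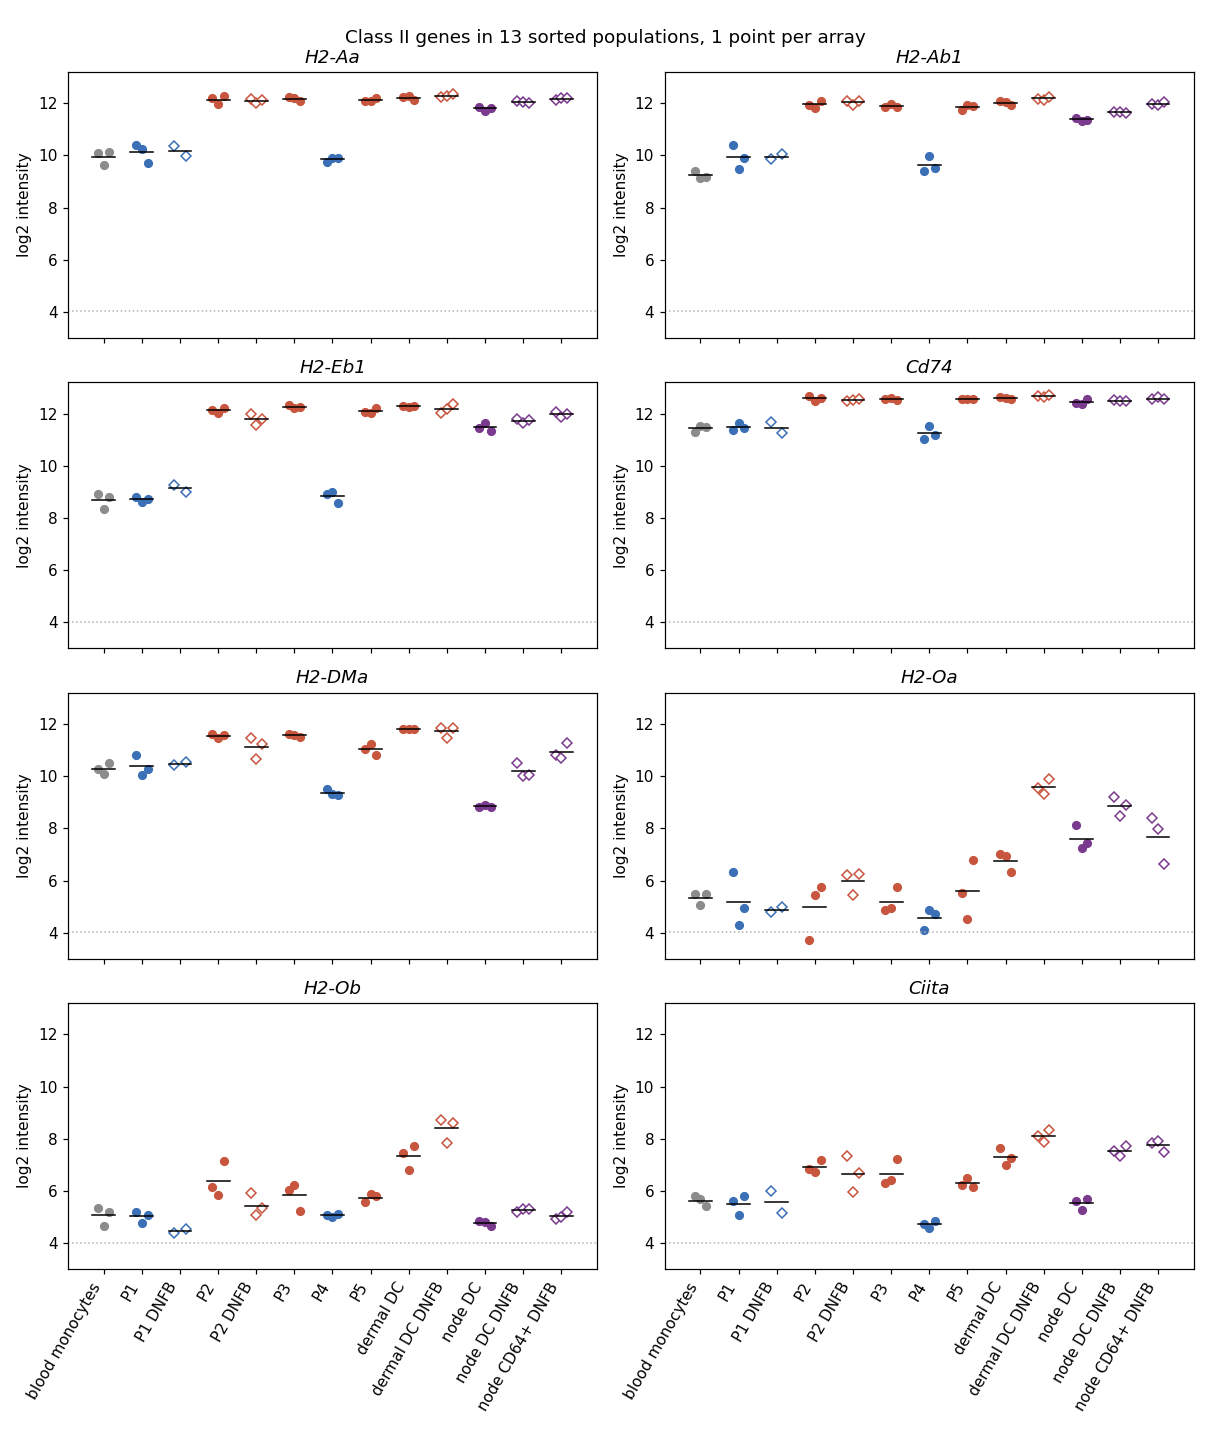
Log2 intensity of the 8 members (vertical axis) in 13 populations (horizontal axis), 1 point per array and a black line for the mean; grey is blood, blue class II negative dermis, orange class II positive dermis, purple lymph node, open diamonds are after DNFB, and the dotted line is 4.02, the 40th percentile of all values. H2-Aa, H2-Ab1, H2-Eb1 and Cd74 fall into a low and a high level along the class II gate, while H2-DMa and Ciita are low in the steady-state node DC, and H2-Oa and H2-Ob reach their highest means in dermal DC after DNFB.

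The 3 chains and Cd74 had a low and a high level with no array between them. H2-Eb1 read 8.36 to 9.28 on the arrays of blood monocytes, P1 and P4, and 11.33 to 12.36 on all others. H2-Aa read 9.62 to 10.40 against 11.71 to 12.36. H2-Ab1 read 9.15 to 10.41 against 11.33 to 12.23. Cd74 read 11.02 to 11.66 against 12.35 to 12.73. The class II negative cells thus still had intensities far above the low-signal level for all 4 genes. Over the 9 class II positive populations the group means spanned 0.49 for H2-Aa, 0.80 for H2-Ab1, 0.82 for H2-Eb1 and 0.25 for Cd74, and over the same populations they spanned 2.96 for H2-DMa, 4.61 for H2-Oa, 3.62 for H2-Ob and 2.60 for Ciita. In these populations the means of the 3 chains and Cd74 lay between the 99.3 and 99.9 percentiles of all gene values. Whether their signal was saturated was not tested.

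The order of the means was followed gene by gene. Overlap of arrays is described here and below without a test, and the share of all genes without overlap was not counted. The dermal DC, at steady state or after DNFB, had the highest mean of all 8 members. For H2-Aa the means ran from 12.29 (SD 0.06) in dermal DC after DNFB to 12.04 (SD 0.05) in node DC after DNFB with each neighbouring pair overlapping, then to 11.80 (SD 0.08) in steady-state node DC, and below a gap from 10.16 in P1 after DNFB to 9.85 in P4. H2-Ab1 had the steady-state node DC lowest of the class II positive populations too, at 11.38 (SD 0.06), below all 3 arrays of node DC after DNFB at 11.66 (SD 0.03). The same held for H2-Eb1, at 11.46 (SD 0.16) below 11.73 (SD 0.07). For Cd74 the mean of steady-state node DC was 12.43 (SD 0.10), and its arrays overlapped those of node DC after DNFB at 12.50 (SD 0.02).

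By its means H2-DMa followed the gate in dermis, but the node migratory DC lay among or below the class II negative populations. Its means fell into the order dermal DC 11.80, dermal DC after DNFB 11.72, P3 11.56, P2 11.55, P2 after DNFB 11.12, P5 11.03 and node CD64+ cells 10.92, each overlapping the next. After a gap came P1 after DNFB at 10.48, P1 at 10.38, blood monocytes at 10.30 and node DC after DNFB at 10.19, again each overlapping the next. P4 macrophages at 9.37 (SD 0.13) and steady-state node DC at 8.84 (SD 0.06) were separate from their neighbours. A class II high population thus had the lowest H2-DMa of all 13.

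H2-Oa had its highest means in DC and node cells: 9.59 (SD 0.31) in dermal DC after DNFB, 8.86 (SD 0.38) in node DC after DNFB, 7.66 (SD 0.93) in node CD64+ cells, 7.61 (SD 0.47) in steady-state node DC and 6.77 (SD 0.37) in steady-state dermal DC. Of these only the node CD64+ cells and the steady-state node DC overlapped as neighbours. The other 8 populations lay between 4.56 and 5.97, each overlapping the next, with SDs up to 1.15. H2-Ob was highest in dermal DC after DNFB at 8.40 (SD 0.48), with a gap to steady-state dermal DC at 7.32 (SD 0.46). From there to steady-state node DC at 4.78 (SD 0.10) each population overlapped the next, and P1 after DNFB was lowest at 4.46 (SD 0.10). In the 3 node populations H2-Oa arrays read 6.62 to 9.22, all above those of blood monocytes (5.07 to 5.49), while H2-Ob arrays read 4.67 to 5.29, within the range of blood monocytes (4.64 to 5.34).

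Ciita was highest in dermal DC after DNFB at 8.12 (SD 0.23), followed by node CD64+ cells at 7.74, node DC after DNFB at 7.53, steady-state dermal DC at 7.31, P2 at 6.93, P2 after DNFB at 6.65, P3 at 6.65 and P5 at 6.30, each overlapping the next. Blood monocytes at 5.63, P1 after DNFB at 5.57, steady-state node DC at 5.52 and P1 at 5.50 overlapped one another in that order, and P4 was lowest at 4.72 (SD 0.12).

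How the members moved with each other was described over the means of the 9 class II positive populations, since over all 13 the gate makes 2 clusters of the chains. H2-Aa had a Pearson r of 0.93 with H2-Ab1, 0.89 with H2-Eb1, 0.93 with Cd74 and 0.94 with H2-DMa. Ciita had r = 0.76 with H2-Aa, 0.68 with H2-Ab1 and 0.47 with H2-Eb1. H2-Oa had r = 0.00 with H2-Aa, -0.29 with H2-DMa and 0.24 with its partner H2-Ob. These are 9 points from arrays normalised together, and no test was made of them.

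Among 2609 other genes whose means span at least 2 log2 units over the 13 populations, those most like each member were named by Pearson r of the 13 means. Over all 13 the gate makes 2 clusters of the chains, so a gene that differs along the gate can rank high. P2ry10 was nearest for Cd74 (r = 0.908), H2-Aa (0.904), H2-Ab1 (0.903), H2-Eb1 (0.889) and Ciita (0.859), with Ccl17 next for Cd74 (0.870), H2-Aa (0.868) and H2-Eb1 (0.874). For H2-DMa they were Ndrg1 (0.846), Klrb1b (0.833) and Spaca9 (0.811). For H2-Oa they were Rhof (0.923), Rcl1 (0.917) and Plekha5 (0.913), and for H2-Ob they were Ctnnd2 (0.947), Grap2 (0.932) and Srgap3 (0.922).

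Entry into dermis without class II protein was compared as P1 against blood monocytes. H2-Ab1, the A beta chain, read 9.42, 9.15 and 9.18 in blood and 10.41, 9.47 and 9.91 in P1, so that every P1 array was above every blood array. It rose by 0.68 (SE 0.15, adjusted p = 0.0022), a 1.6-fold difference. It was the 1 of 8 members called, beside 12.6% of all genes. H2-Aa, its partner, differed by 0.17 (SE 0.14, adjusted p = 0.53) with overlapping arrays, and H2-Eb1 by 0.02 (SE 0.13). Ciita differed by -0.13 (SE 0.27). Of the regulators upstream, Irf8 fell by 1.68 (SE 0.24, adjusted p = 1.0e-05) and Irf2 by 1.35 (SE 0.18, adjusted p = 4.2e-06), both interferon regulatory factors. All 7 keratinocyte and all 6 fibroblast genes were called higher in P1, and their part in the H2-Ab1 difference was not tested. With only these 2 groups in the fit, H2-Ab1 had an adjusted p of 0.18.

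P2 and P1 share Ly6C and CCR2 and differ in class II and in CD64, so the direction for class II protein was set. H2-Eb1 read 8.79, 8.62 and 8.73 in P1 and 12.14, 12.02 and 12.20 in P2, a difference of 3.40 (SE 0.13, adjusted p = 5.1e-17), or 10.6-fold. H2-Aa went from 10.40, 10.26 and 9.71 to 12.18, 11.96 and 12.27, which is 4.04-fold, and H2-Ab1 differed 4.05-fold. Cd74 went from 11.37, 11.63 and 11.43 to 12.69, 12.49 and 12.60, which is 2.17-fold. The size was thus unequal between the probe sets, with the greatest fold for H2-Eb1.
H2-DMa, Ciita and H2-Ob rose as well. H2-DMa read 10.81, 10.04 and 10.29 in P1 and 11.63, 11.46 and 11.57 in P2 (1.17, SE 0.19, adjusted p = 2.1e-04). Ciita read 5.60, 5.09 and 5.81 in P1 and 6.86, 6.74 and 7.19 in P2 (1.43, SE 0.27, adjusted p = 0.0022). H2-Ob read 5.19, 4.79 and 5.09 in P1 and 6.14, 5.84 and 7.15 in P2 (1.35, SE 0.29, adjusted p = 0.0064). H2-Oa overlapped, at -0.21 (SE 0.52, adjusted p = 0.95). Rises were called for 7 of 8 members, beside 2.09% of all genes called. Cell type markers moved with them: 5 of 7 macrophage genes rose (list mean 6.56 in P1 and 8.95 in P2), as did 2 of 5 DC genes (5.90 and 6.63), and their part in the result was not tested. Irf4, a factor known to act at Ciita in myeloid cells, rose by 1.85 (SE 0.29) and Irf8 fell by 1.09 (SE 0.24). Without P2 replicate 3 H2-Ob was 0.97 higher with an adjusted p of 0.085, and with only these 2 groups in the fit 4 members were called.

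After DNFB the same gates gave 4 rises of 8, beside 0.612% of all genes. H2-Eb1 read 9.28 and 9.01 in P1 and 11.99, 11.57 and 11.80 in P2, a 6.24-fold difference (adjusted p = 8.5e-13). H2-Aa differed 3.84-fold, H2-Ab1 4.27-fold and Cd74 2.08-fold. With only these 2 groups in the fit, Cd74 had an adjusted p of 0.17. H2-DMa (0.64, SE 0.21, adjusted p = 0.25), H2-Ob (0.98, SE 0.32, adjusted p = 0.25) and Ciita (1.08, SE 0.30, adjusted p = 0.13) did not pass, and Ciita passed without DNFB P2 replicate 2 (1.43, adjusted p = 0.018). Of the markers, 3 of 7 macrophage genes and 1 of 5 DC genes rose, and their part was not tested. Whether the P2 difference from P1 changed with DNFB was tested directly, and no member passed, beside 0.0552% of all genes called. At an unadjusted p under 0.05 limma had 1 of 8 there, H2-Eb1 at -0.76 (SE 0.19, adjusted p = 0.25).

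The class II gate within macrophages gave a like set of sizes. H2-Eb1 read 8.92, 8.99 and 8.59 in P4 and 12.07, 12.02 and 12.20 in P5, a 9.6-fold difference (adjusted p = 1.6e-16). H2-Aa was 4.85-fold, H2-Ab1 4.64-fold and Cd74 2.48-fold higher. H2-DMa read 9.51, 9.33 and 9.26 in P4 and 11.05, 11.23 and 10.82 in P5, and rose by 1.67 (SE 0.19, adjusted p = 1.1e-06). Ciita read 4.74, 4.59 and 4.84 in P4 and 6.23, 6.49 and 6.17 in P5, and rose by 1.57 (SE 0.27, adjusted p = 0.0016). H2-Ob differed by 0.68 (SE 0.29, adjusted p = 0.54) and H2-Oa by 1.05 (SE 0.52, adjusted p = 0.69). Thus 6 of 8 members rose, beside 0.492% of all genes called. With only these 2 groups in the fit Cd74 had an adjusted p of 0.071. Of 5 DC genes 2 rose in P5 as well (list mean 4.98 in P4 and 6.13 in P5), and their part was not tested. Of 7 interferon gamma axis genes measured, Jak2, a kinase of the interferon gamma receptor, rose by 1.36 (SE 0.28, adjusted p = 0.014).

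The class II negative populations P4 and P1 were compared with each other. H2-DMa fell by 1.02 (SE 0.19, adjusted p = 2.4e-04) in P4, where each array was below each P1 array. It was the 1 of 8 members called, beside 11.9% of all genes. Ciita did not overlap either, at -0.78 (SE 0.27, adjusted p = 0.061), and passed with the arrays' replicate numbers in the fit (adjusted p = 0.033) and with low genes left out (adjusted p = 0.048). The A chains did not pass, with H2-Aa at -0.27 (SE 0.14, adjusted p = 0.23) and its partner H2-Ab1 at -0.30 (SE 0.15, adjusted p = 0.22). Leaving out single arrays gave 1 to 3 calls: without P1 replicate 2 H2-Ab1 (-0.53, adjusted p = 0.0096) and Ciita (-0.98, adjusted p = 0.029) passed, without P1 replicate 3 H2-Aa did (-0.48, adjusted p = 0.012), and without P4 replicate 2 H2-Ab1 (-0.47, adjusted p = 0.049) and Cd74 (-0.38, adjusted p = 0.016) did. Jak2 was 1.74 (SE 0.28, adjusted p = 5.6e-05) lower in P4.

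Among class II positive dermal cells at steady state, the chains and Cd74 showed no called difference in the 4 comparisons made. Between P3 and P2, which differ in Ly6C, 0 of 8 members were called by limma, and 0 had an unadjusted p under 0.05, beside 0.371% of all genes called. The 95% interval of the difference was -0.24 to 0.32 for H2-Aa, -0.12 to 0.41 for H2-Eb1 and -0.37 to 0.39 for H2-DMa, and wider for H2-Ob (-1.13 to 0.04). Between P5 and P3, 0 of 8 were called by limma, beside 1.25% of all genes. There H2-DMa, the 1 member with an unadjusted p under 0.05, read 11.05, 11.23 and 10.82 in P5 and 11.60, 11.59 and 11.50 in P3, at -0.53 (SE 0.19, adjusted p = 0.24).

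The dermal DC had more H2-Ob, the beta chain of H2-O, than P3 and P5. H2-Ob read 6.05, 6.23 and 5.22 in P3, 5.57, 5.87 and 5.79 in P5 and 7.44, 6.82 and 7.71 in dermal DC, whose arrays were above all others. Against P3 it was higher by 1.49 (SE 0.29, adjusted p = 0.0023), the 1 of 8 members called beside 1.80% of all genes. Its partner H2-Oa read 4.87, 4.94 and 5.76 in P3 and 7.0, 6.96 and 6.34 in dermal DC, which did not overlap, at 1.58 (SE 0.52, adjusted p = 0.15). Against dermal DC, P5 macrophages had less H2-Ob (-1.58, SE 0.29, adjusted p = 3.8e-04), less Ciita (-1.01, SE 0.27, adjusted p = 0.019) and less H2-DMa (-0.77, SE 0.19, adjusted p = 0.0077). These were 3 falls of 8, beside 6.52% of all genes called. The markers differed with the sort: 4 of 5 DC genes were higher and 5 of 7 macrophage genes lower in dermal DC than in P3, and 4 of 5 DC genes were lower and 6 of 7 macrophage genes higher in P5 than in dermal DC. Their part in the result was not tested. Without P5 replicate 1, P5 replicate 3 or dermal DC replicate 1 the adjusted p of Ciita was 0.063, 0.08 and 0.12, and without P5 replicate 3 that of H2-DMa was 0.063; with only DC and P3 in the fit H2-Ob had an adjusted p of 0.16.

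Endosomal proteases ran the other way in these cells. Of all genes, 6.52% were called in P5 against dermal DC and 1.8% in dermal DC against P3. Of 9 endosomal processing genes, 4 were higher in P5 than in dermal DC: the cathepsins Ctsl (3.05, SE 0.38), Ctsb (1.41, SE 0.17) and Ctsd (1.18, SE 0.25) and the legumain gene Lgmn (2.34, SE 0.22). Ifi30, the lysosomal thiol reductase, was lower (-0.47, SE 0.14). Lgmn, Ctsl and Ctsb were also lower in dermal DC than in P3, by 1.90, 2.12 and 0.84 as sizes of the difference on the log2 scale. Of 3 myeloid factors at Ciita, Irf8 was 1.45 (SE 0.24) higher and Irf4 1.12 (SE 0.29) lower in P5 than in dermal DC.

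**Figure D2:**
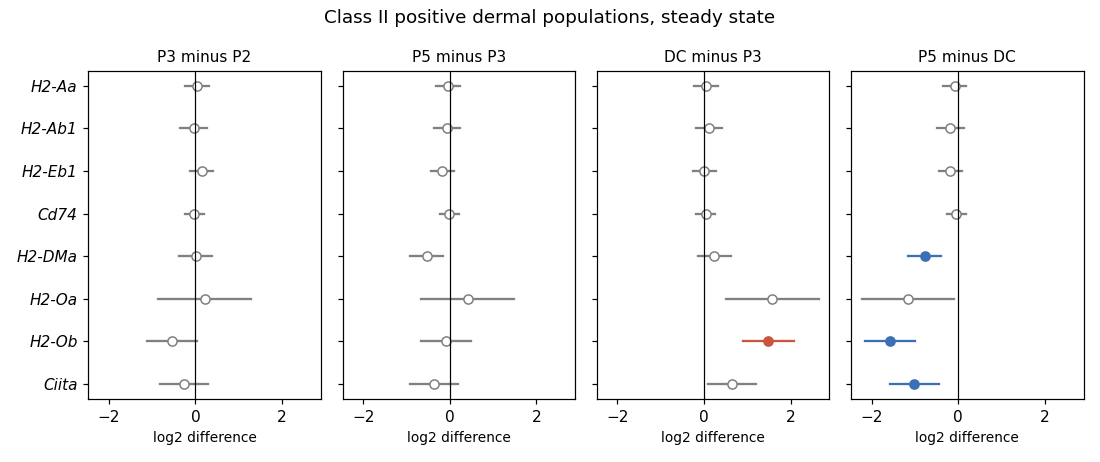
Log2 difference (horizontal axis) of each member between class II positive dermal populations at steady state, with 95% intervals from limma; filled orange points rose, filled blue points fell and open grey points did not pass the adjusted threshold. The chains and Cd74 lie near 0 in all 4 panels, and the called points are H2-Ob for DC minus P3, and H2-DMa, H2-Ob and Ciita for P5 minus DC.

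Migratory DC of the node were set against dermal DC, the tissue they leave, with the gates class II high and class II positive. H2-DMa read 11.81, 11.80 and 11.80 in dermal DC and 8.80, 8.91 and 8.81 in node DC. The groups lie far apart, and the fall was 2.96 (SE 0.19, adjusted p = 2.7e-13) on the log2 scale, a 7.8-fold difference. H2-Ob read 7.44, 6.82 and 7.71 in dermal DC and 4.86, 4.80 and 4.67 in node DC, and fell by 2.54 (SE 0.29, adjusted p = 4.5e-08). Ciita read 7.66, 6.99 and 7.28 in dermal DC and 5.62, 5.27 and 5.68 in node DC, and fell by 1.78 (SE 0.27, adjusted p = 8.3e-06). In node DC Ciita was thus at the level of the class II negative P1 cells, whose arrays read 5.09 to 5.81.
The chains fell by less. H2-Eb1 read 12.29, 12.25 and 12.29 in dermal DC and 11.43, 11.64 and 11.33 in node DC (-0.81, SE 0.13, adjusted p = 1.6e-05). H2-Ab1 fell by 0.64 (SE 0.15, adjusted p = 0.0016). H2-Aa read 12.25, 12.26 and 12.13 in dermal DC and 11.87, 11.71 and 11.83 in node DC, and fell by 0.41 (SE 0.14, adjusted p = 0.029). Cd74 differed by -0.16 (SE 0.11, adjusted p = 0.34). H2-Oa went against the other members, from 7.0, 6.96 and 6.34 to 8.14, 7.24 and 7.44, without overlap, at 0.84 (SE 0.52, adjusted p = 0.31). Falls were called for 6 of 8 members, and 20.3% of all genes were called in either direction, the largest share of the 21 comparisons. The median difference was -0.73 over the 8 members and 0.05 over all genes. The H2-Aa call was lost without dermal DC replicate 1 (adjusted p = 0.086) or 2 (0.087), or without node DC replicate 2 (0.11) or 3 (0.059).

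After DNFB the same comparison gave 4 falls of 8, beside 17.5% of all genes. H2-Ob read 8.73, 7.84 and 8.62 in dermal DC and 5.20, 5.29 and 5.29 in node DC, a fall of 3.13 (SE 0.29, adjusted p = 9.1e-10) on the log2 scale or 8.77-fold. H2-DMa read 11.85, 11.46 and 11.86 in dermal DC and 10.49, 10.01 and 10.06 in node DC, and fell by 1.53 (SE 0.19, adjusted p = 2.0e-07). H2-Ab1 fell by 0.52 (SE 0.15, adjusted p = 0.012) and H2-Eb1 by 0.46 (SE 0.13, adjusted p = 0.011). Ciita differed by -0.59 (SE 0.27, adjusted p = 0.16) and H2-Oa by -0.72 (SE 0.52, adjusted p = 0.45). The H2-Eb1 call was lost under quantile normalisation (-0.38, adjusted p = 0.059), without dermal DC replicate 3 (adjusted p = 0.087) and without node DC replicate 2 (0.053), and Ciita passed with only these groups in the fit (adjusted p = 0.036).

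**Figure D3:**
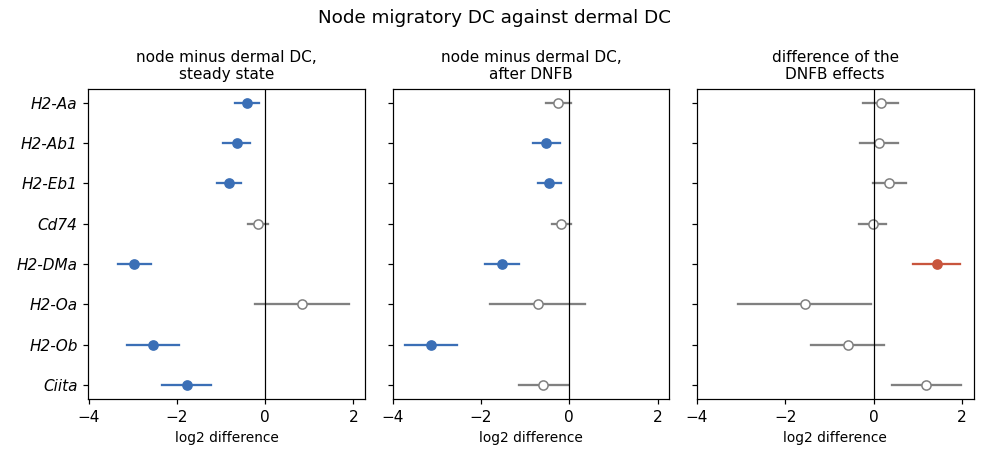
Log2 difference (horizontal axis) of each member between node migratory DC and dermal DC at steady state and after DNFB, and the difference between their DNFB effects, with 95% intervals from limma; blue points fell, orange points rose and open grey points did not pass. H2-DMa and H2-Ob are the members farthest below 0 at steady state (-2.96 and -2.54), and the third panel has 1 called member, H2-DMa at 1.43.

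The factors that bind the class II promoter were looked at as a list. Beside the counts below, 20.3% of all genes were called at steady state and 17.5% after DNFB. Of 7 such genes, 3 rose and 0 fell in node DC at steady state: Rfx5, a subunit of the RFX complex (1.63, SE 0.27, adjusted p = 3.5e-05), Nfya, a subunit of NF-Y (1.07, SE 0.23, adjusted p = 6.1e-04), and Rfxank, another RFX subunit (0.84, SE 0.23, adjusted p = 0.0065). After DNFB 4 rose, Creb1 (1.04, SE 0.20) in addition to these 3, and Rfxap fell (-0.64, SE 0.21). In the interferon gamma axis, the receptor chain Ifngr1 fell by 1.91 (SE 0.19) and the factor Irf1 rose by 1.63 (SE 0.32) at steady state, and after DNFB Ifngr1 fell by 2.61 and Irf1 rose by 2.54. Irf8 rose by 2.18 (SE 0.24) at steady state and by 1.94 (SE 0.24) after DNFB, and Irf4 fell by 1.5 (SE 0.29) at steady state.

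Antigen processing genes went in both directions in node DC, and most surface turnover genes fell. Beside these lists, 20.3% of all genes were called at steady state. At steady state 3 of 9 processing genes fell, Ctsd by 1.20, Ctsl by 1.14 and Ctsb by 1.06, and Ifi30 rose by 0.61, with a median difference of 0.09 over the 9. Of 5 surface turnover genes 4 fell: Il10, a cytokine known to lower surface class II, by 4.16 (SE 0.34) to a mean of 4.14, Marchf1, the ligase that marks class II for removal, by 1.02 (SE 0.19), Cd83, which is known to oppose Marchf1, by 0.84 (SE 0.25), and Il10ra by 0.80 (SE 0.23).

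H2-Eb2 was the class II gene that moved most in the other direction. It read 6.16, 5.00 and 5.07 in dermal DC and 10.00, 9.71 and 9.80 in node DC at steady state, a rise of 4.43 (SE 0.38, adjusted p = 2.8e-10), and 9.27, 9.31 and 9.78 in node DC after DNFB. It read 9.46, 9.76 and 8.40 in node CD64+ cells, and no array outside the node was above 7.21. H2-Eb1, its close relative, fell in the same steady-state comparison; whether probes of the 2 genes share targets was not tested. H2-Ea, which the gene reference lists as a transcribed pseudogene, read 3.33 in dermal DC, under the low-signal level.

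Cells of other types differed between these sorts as well, beside 20.3% of all genes called at steady state. All 7 keratinocyte genes were lower in node DC at steady state (list mean 4.78 against 7.40 in dermal DC), as were 6 of 7 macrophage genes (4.52 against 8.40), of which Fcgr1 encodes the CD64 gate. The part of these cells in the differences of the 8 members was not tested. The dermal DC gate was class II positive and that of the node class II high, and the gate and the tissue cannot be told apart.

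The effect of DNFB was measured within 4 populations. In P1, with 2 treated arrays, 0 of 8 members were called by limma and 1 had an unadjusted p under 0.05, beside 0.637% of all genes called; H2-Eb1 read 9.28 and 9.01 against 8.79, 8.62 and 8.73, at 0.43 (SE 0.15, adjusted p = 0.21). In P2, 0 of 8 were called by limma, beside 2.02% of all genes called. At an unadjusted p under 0.05 limma had 3, H2-Ob (-0.94, SE 0.29, adjusted p = 0.09), H2-Eb1 (-0.33, SE 0.13, adjusted p = 0.25) and H2-DMa (-0.43, SE 0.19, adjusted p = 0.32). The share of all genes at that unadjusted threshold was not counted in P1 or P2. H2-Ob passed without steady-state P2 replicate 2 (-1.21, adjusted p = 0.033) or DNFB P2 replicate 1 (-1.18, adjusted p = 0.038). Irf8 rose by 1.28 (SE 0.24) and Irf4 fell by 1.65 (SE 0.29) in P2.

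In dermal DC both chains of H2-O rose with DNFB. H2-Oa read 7.0, 6.96 and 6.34 at steady state and 9.55, 9.30 and 9.91 after DNFB, a rise of 2.82 (SE 0.52, adjusted p = 9.0e-04), or 7.05-fold. H2-Ob read 7.44, 6.82 and 7.71 and then 8.73, 7.84 and 8.62, a rise of 1.07 (SE 0.29, adjusted p = 0.025), or 2.1-fold. Ciita read 7.66, 6.99 and 7.28 and then 8.12, 7.89 and 8.35, without overlap, at 0.81 (SE 0.27, adjusted p = 0.097). H2-DMa, whose product H2-O restrains, differed by -0.08 (SE 0.19, 95% interval -0.46 to 0.30), and the 3 chains and Cd74 by -0.09 to 0.16. Thus 2 of 8 members rose, beside 4.16% of all genes called. H2-Eb2 rose by 1.38 (SE 0.38, adjusted p = 0.035), Irf8 by 1.32 (SE 0.24, adjusted p = 6.4e-04) and Ifi30 by 0.72 (SE 0.14, adjusted p = 0.0014), and Irf4 fell by 1.06 (SE 0.29, adjusted p = 0.028).
The H2-Ob call was lost without any 1 of 4 arrays: steady-state DC replicate 1 (adjusted p = 0.051) or 2 (0.18), or DNFB DC replicate 1 (0.16) or 3 (0.12). With only these 2 groups in the fit, its adjusted p was 0.11. Marker genes of other cells moved too: 2 of 4 T cell genes rose, with a list mean of 4.02 at steady state (arrays 3.74 to 4.31) and 5.08 after DNFB (4.73 to 5.36), and the keratinocyte mean went from 7.40 to 6.23 with 2 of 7 genes falling. Of 5 DC genes 3 rose (list mean 7.93 at steady state and 8.96 after DNFB). Of 7 macrophage genes 4 fell and 1 rose (8.40 and 7.16), and of 5 monocyte genes 2 rose and 1 fell (6.48 and 7.26). The part of these cells in the H2-Oa and H2-Ob results was not tested. The mean of 9 B cell genes was 4.15 at steady state and 4.17 after DNFB. Of these 9, 0 were called by limma and 1 had an unadjusted p under 0.05. Among them, Cd79a read 3.19 to 3.88 and Ms4a1 2.84 to 3.43 over these 6 arrays, under the low-signal level in both states.

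In node migratory DC, Ciita and H2-DMa rose with DNFB. Ciita read 5.62, 5.27 and 5.68 at steady state and 7.53, 7.33 and 7.73 after DNFB, a rise of 2.01 (SE 0.27, adjusted p = 4.8e-05), or 4.03-fold. H2-DMa read 8.80, 8.91 and 8.81 and then 10.49, 10.01 and 10.06, a rise of 1.35 (SE 0.19, adjusted p = 5.0e-05), or 2.55-fold. H2-Oa read 8.14, 7.24 and 7.44 and then 9.22, 8.46 and 8.90, without overlap, at 1.25 (SE 0.52, adjusted p = 0.43). H2-Aa, H2-Ab1 and H2-Eb1 differed by 0.24, 0.28 and 0.27, also without overlap, with adjusted p of 0.70, 0.66 and 0.59. These were 2 rises of 8, beside 1.34% of all genes called. Arrays did not overlap for 7 of the 8 members, called or not. Irf8 rose by 1.08 (SE 0.24, adjusted p = 0.013) and Irf4 by 1.13 (SE 0.29, adjusted p = 0.037).

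**Figure D4:**
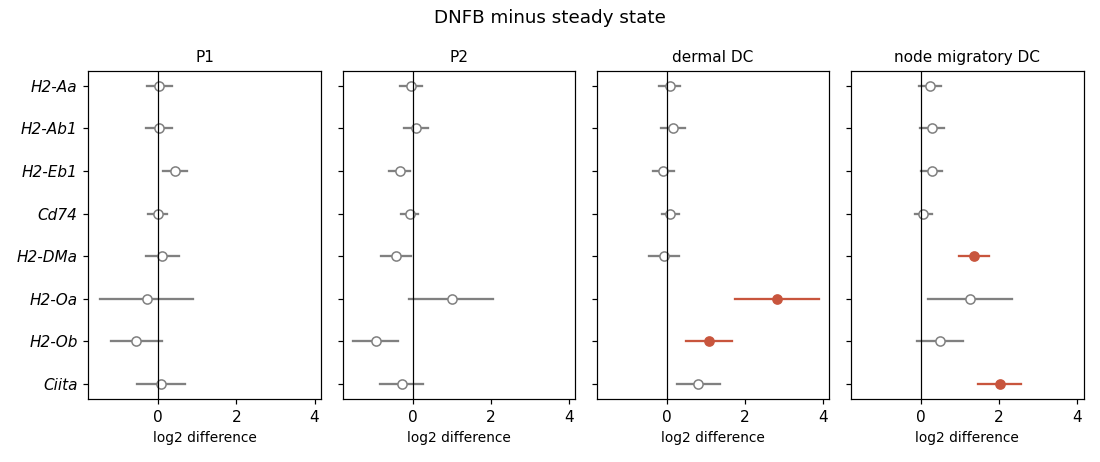
Log2 difference (horizontal axis) between DNFB and steady state for each member in P1, P2, dermal DC and node migratory DC, with 95% intervals from limma; orange points rose and open grey points did not pass. H2-Oa and H2-Ob are called in dermal DC (2.82 and 1.07), H2-DMa and Ciita in node migratory DC (1.35 and 2.01).

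Whether the effect of DNFB itself differed between cells was tested. Between node DC and dermal DC, the effect on H2-DMa differed by 1.43 (SE 0.26, adjusted p = 0.0024), the 1 of 8 members called beside 1.31% of all genes. The effect on Ciita differed by 1.19 (SE 0.38, adjusted p = 0.15), and by the same value with an adjusted p of 0.045 when only these 4 groups were in the fit. The effect on H2-Oa differed by -1.56 (SE 0.74, adjusted p = 0.48). Irf4 was called, at 2.20 (SE 0.40, adjusted p = 0.0025). Between dermal DC and P2, the effect on H2-Ob differed by 2.01 (SE 0.40, adjusted p = 0.018), the 1 of 8 called beside 0.251% of all genes, and that on H2-Oa by 1.82 (SE 0.74, adjusted p = 0.66). The H2-Ob call was lost without any 1 of 6 arrays, with adjusted p of 0.053 to 0.09: steady-state P2 replicate 3, steady-state DC replicate 2, DNFB P2 replicates 2 and 3, and DNFB DC replicates 1 and 3. It had an adjusted p of 0.28 with only the 4 groups in the fit.

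After DNFB, dermal DC were set against the class II positive monocyte-like P2 of the same skin. H2-Oa read 6.22, 5.44 and 6.25 in P2 and 9.55, 9.30 and 9.91 in DC, a difference of 3.61 (SE 0.52, adjusted p = 3.5e-05), or 12.2-fold. H2-Ob read 5.91, 5.07 and 5.34 in P2 and 8.73, 7.84 and 8.62 in DC, a difference of 2.96 (SE 0.29, adjusted p = 3.3e-08). Ciita read 7.33, 5.95 and 6.67 in P2 and 8.12, 7.89 and 8.35 in DC (1.47, SE 0.27, adjusted p = 8.5e-04). Thus 3 of 8 members were higher, beside 3.38% of all genes called. All 5 DC genes were higher and 6 of 7 macrophage genes lower in the DC, and their part was not tested. H2-Eb1 at 0.40 (SE 0.13, adjusted p = 0.095) and H2-DMa at 0.60 (SE 0.19, adjusted p = 0.075) did not pass. Both passed without DNFB P2 replicate 1 (adjusted p = 0.041 and 0.023). In this comparison the arrays of all 8 members did not overlap, called or not. With only these 2 groups in the fit Ciita had an adjusted p of 0.059.

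The CD64+ cells of the node after DNFB were compared with their neighbours in the node and with dermal P2. H2-DMa read 10.81, 10.69 and 11.27 in node CD64+ cells and 10.49, 10.01 and 10.06 in node DC, and was higher by 0.73 (SE 0.19, adjusted p = 0.014), the 1 of 8 members called beside 4.82% of all genes. That call was lost without node DC replicate 2 (adjusted p = 0.099) or 3 (0.06), or without CD64+ replicate 3 (0.19). Of 9 processing genes 5 were higher in the CD64+ cells, among them Ctsb (1.79, SE 0.17), Ctsd (2.35, SE 0.25) and Ctsl (2.73, SE 0.38). So were 6 of 7 macrophage genes and 4 of 5 monocyte genes, whose part in the H2-DMa difference was not tested.
Against P2, Ciita read 7.82, 7.90 and 7.51 in node CD64+ cells and 7.33, 5.95 and 6.67 in P2, higher by 1.09 (SE 0.27, adjusted p = 0.0052). H2-Oa read 8.39, 7.96 and 6.62 in node CD64+ cells and 6.22, 5.44 and 6.25 in P2, higher by 1.68 (SE 0.52, adjusted p = 0.03). H2-Ob, its partner, overlapped, at -0.39 (SE 0.29, adjusted p = 0.50). These were 2 of 8 members, beside 12.6% of all genes. In the node cells 4 of 5 DC genes were higher and 1 lower, and of 7 macrophage genes 1 was higher and 3 lower. Lower too were 4 of 5 monocyte, 5 of 7 keratinocyte and 3 of 6 fibroblast genes. The part of all these markers was not tested. The H2-Oa call was lost without P2 replicate 2 (adjusted p = 0.14) or CD64+ replicate 1 (0.19) or 2 (0.12), and that of Ciita without P2 replicate 2 (0.74, adjusted p = 0.083). H2-Eb2 was 4.00 (SE 0.38, adjusted p = 4.8e-09) higher in the node cells. All 3 chains and Cd74 differed by -0.06 to 0.19 in this comparison and did not pass.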

How the data were processed

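The authors deposited log2 intensities per probe set, which per the submitters' processing notes were made with RMA in affy; their versions are not given in the sources used here. The values were used as deposited, without further scaling. Of 34760 probe sets, 21640 carry 1 gene symbol in the platform annotation and were kept, 1321 carry several and 11799 none. For 954 genes with several probe sets, none of them a member, the probe set of highest mean over all arrays stood for the gene. H2-DMb1 and H2-DMb2 share a probe set with 2 symbols and are not named.

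All 13 groups entered 1 linear model in limma 3.58.1 in R 4.3.3 (25 residual and 3.13 prior degrees of freedom), with Benjamini-Hochberg adjustment over 19937 genes in each of 21 comparisons. A permutation of 3 against 3 arrays has too few splits to pass. The fit was tested on simulated data. Named genes are the 8 members, up to 3 genes per pathway list and comparison by smallest adjusted p, and the 3 most like genes; where 5 or fewer genes of a list passed, further ones were named after their values were seen. The members and lists were chosen with earlier results of these data known. The series text mentions independent pools and chip batches but ties no array to either, so a batch term could not be fitted. Pairing was checked by the replicate numbers in the titles. Deviations of arrays with the same replicate number correlated between -0.26 and 0.35. In 0 of 18 comparisons was every pair over 0.1, so the samples were not treated as paired. Numbers in the source names match the replicate numbers only in part. They are 1, 2 and 4 for steady-state blood and dermis and 1, 2 and 3 for steady-state node DC. After DNFB they are 3, 4 and 5, or 3 and 4 for P1. Steady-state and DNFB arrays thus share few source numbers. In each DNFB effect, arrays with the same replicate number had different source numbers. As a random block, those source numbers had an estimated correlation of 0.00. Each p measures the spread between arrays within populations, and whether compared populations share pools of mice is not known. Alternatives were a replicate block, the source number as a random block, quantile normalization, centred array medians, low values left out (genes under 4.02), the mean of all probe sets, a robust fit with an intensity trend, a fit of only the compared groups, and leaving out each array. The number of arrays limits the precision. Promoters were searched in RefSeq windows of GRCm38.p6, while the build of the array annotation is not given in the sources used here, so no gene coordinates are printed. Figures come from matplotlib 3.10.9 under Python 3.11.15.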

Additional observations from a re-analysis of the deposited data

Results flagged for a closer look

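Of the 8 members and the pathway genes, 3 had a DNFB effect that differed between populations by a test of the difference in limma. For H2-DMa, the effect in node migratory DC minus that in dermal DC was 1.43 (adjusted p = 0.0024), made of a rise of 1.35 in the node and a difference of -0.08 in dermis. For Irf4 the same contrast was 2.20 (adjusted p = 0.0025), with a rise of 1.13 in the node and a fall of 1.06 in dermis. For H2-Ob, the effect in dermal DC minus that in P2 was 2.01 (adjusted p = 0.018), with a rise of 1.07 in dermal DC and a difference of -0.94 in P2, and leaving out any 1 of 6 of its 12 arrays ended the call. No group had 4 or more arrays, so single arrays were not tested for standing apart.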

How the results depend on the processing

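Of 45 called member values, 10 lost their call without some 1 array, 13 with only the compared groups in the fit, and 1 under the 7 other alternatives. Of 123 uncalled values, 8 gained a call without some 1 array and 3 under another alternative. Among the 7 other alternatives, the mean of all probe sets left member values unchanged, since each member has 1 probe set. The source number as a random block had an estimated correlation of 0.00, so that fit was near the main one. No called value reversed, and 70 of 2472 alternative values, uncalled in both fits, changed sign. Counts of called members that moved by over 1.5 times were these. For P4 minus P1 it was 1, and 2 with the replicate block and 2 with low values left out; the replicate block changed no other call. With only the compared groups it was 0 in place of 1 for P1 minus blood monocytes, 4 in place of 7 for P2 minus P1, 0 in place of 1 for dermal DC minus P3, 1 in place of 2 for the DNFB effect in dermal DC, 0 in place of 1 for node CD64+ cells minus node DC, 0 in place of 2 for node CD64+ cells minus P2, 0 in place of 1 for the DNFB effect in dermal DC minus that in P2, and 2 in place of 1 for the DNFB effect in node DC minus that in dermal DC; such fits have fewer arrays for the spread. Smaller moves with only the compared groups were 5 in place of 6 for P5 minus P4, 3 in place of 4 for P2 minus P1 after DNFB, 2 in place of 3 for dermal DC minus P2 after DNFB and 5 in place of 4 for node DC minus dermal DC after DNFB, which had 3 under quantile normalization. Leaving out each array gave 1 to 3 for P4 minus P1, 1 to 3 for P5 minus dermal DC, 0 to 1 for the DNFB effect in P2, 1 to 2 for that in dermal DC, 3 to 5 for dermal DC minus P2 after DNFB, 0 to 1 for node CD64+ cells minus node DC, 0 to 2 for node CD64+ cells minus P2, and 0 to 1 for the DNFB effect in dermal DC minus that in P2. It gave 6 to 7 for P2 minus P1, 4 to 5 after DNFB, 5 to 6 for node DC minus dermal DC and 3 to 4 after DNFB. The cause of the changes was not tested. The lowest population means were 4.56 for H2-Oa, 4.46 for H2-Ob and 4.72 for Ciita, close to the low-signal level of 4.02, and no detection calls or saturation flags were read.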
